A study of Mus musculus with 6 samples.

Results

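Semaphorins, plexins, ephrins, Eph receptors, netrins, Unc5 receptors, slits and robos are the families of guidance cues and their receptors, and 68 of the 22028 protein-coding genes among the 55536 genes listed in the data belong to them by symbol. Members were protein-coding genes of GENCODE M21 whose symbol begins with Sema, Plxn, Efna, Efnb, Epha, Ephb, Slit, Robo, Unc5 or Ntn. A digit had to follow each prefix, with a letter before it for Plxn, and after Unc5 any ending was allowed. Slitrk and Ntng genes are thus not members. Genes were matched by Ensembl identifier. The rule reads symbols and no expression value. Of the 68, Unc50 and Unc5cl match by spelling alone. Unc5cl encodes a death-domain adaptor and Unc50 a membrane protein, and neither is a netrin receptor. Transcripts were measured by RNA sequencing in SVEC4-10, an immortalised mouse line labelled as endothelial. There were 3 control libraries, of untreated cells, and 3 of cells kept with nattokinase for 24 hours. Nattokinase is a serine protease of fermented soybeans that degrades fibrin. All cells were grown in the same serum-containing medium, and the dose was not stated in the labels.

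Guidance molecules were named for steering axons, and the same cues pattern blood and lymphatic vessels. Class 3 semaphorins are secreted and act through plexins, mostly with neuropilins as co-receptors, and plexins in turn act on small GTPases and the actin cytoskeleton. Ephrins are membrane-bound ligands of the Eph receptor tyrosine kinases, so both signal at contacts between cells, and both partners can signal. Netrins act through receptors that include Dcc, Unc5b and neogenin, and slits act through robos. Robo4 is known as an endothelial member of the robo family.

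The libraries held 15044778 to 18341370 assigned reads. Values are FPKM, reads scaled to exon length and to the library's assigned reads, so levels can be compared between genes. The labels do not state that replicates of a group came from separate cultures. The p-values therefore set the difference between groups against the spread of just these samples, and that spread may be technical. The endothelial label was checked against 12 markers. None of the 12 reached 1 FPKM in 3 libraries, and 4 of them, Emcn, Cldn5, Tie1 and Erg, were at 0 throughout, while Pecam1 had at most 3 reads. Of 6 lymphatic endothelial markers 2 passed (Pdpn and Flt4) and 4 were at 0, and 7 of 11 fibroblast and mural markers passed, Thy1 being at 0. The summed level of the fibroblast and mural list was 2537 to 2647 FPKM in the controls and 2765 to 2835 FPKM with nattokinase. In that list Acta2, smooth muscle actin, had 432 to 475 and 891 to 916 FPKM, and the other 10 genes summed to 2067 to 2215 in the controls and 1849 to 1920 with nattokinase. The collagen genes Col1a1 and Col3a1 were lower, at 1360 to 1480 and 1195 to 1262 FPKM, and at 141 to 146 and 94.6 to 96.9. Pdgfra and Pdgfrb were higher, at 7.23 to 7.67 and 7.88 to 8.70 FPKM, and at 16.5 to 17.8 and 17.9 to 21.2. Col1a2, at 514 to 542 and 500 to 523 FPKM, and Dcn, at 20.9 to 22.7 and 21.8 to 22.7, had overlapping groups. The summed level of the lymphatic list was 125 to 136 and 109.7 to 115 FPKM. The leukocyte list summed to 1.20 to 1.54 and 2.30 to 2.77 FPKM, with 1 of 6 markers passing (Cd68) and 4 at 0, Ptprc among them. The epithelial list had 2 of 6 markers passing and summed to 6.48 to 7.87 and 7.30 to 8.92 FPKM, and the neuronal and glial list had 2 of 8 and summed to 8.52 to 9.11 and 8.53 to 9.43 FPKM. Protein-coding genes took 95.4% to 96.7% of control reads and 98.3% to 98.4% of nattokinase reads, and an 18S-like transcript (CT010467.1) took 1.85% to 2.89% and 0.525% to 0.610%. The part of these differences in the results was not tested, except for the protein-coding share, by which the values were rescaled as an alternative.

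The promoters of Epha4, Efnb1, Efna2 and Sema3e are shown because these genes, with Plxna4, are the guidance genes whose levels passed the test described further on. Each sequence is the 250 bases before the RefSeq start of the gene (GRCm38.p6), read 5′ to 3′ on the gene's strand, in lower case with CCAAT boxes, on either strand, in capitals.
Epha4 promoter, chr1:77515089-77515338, minus strand: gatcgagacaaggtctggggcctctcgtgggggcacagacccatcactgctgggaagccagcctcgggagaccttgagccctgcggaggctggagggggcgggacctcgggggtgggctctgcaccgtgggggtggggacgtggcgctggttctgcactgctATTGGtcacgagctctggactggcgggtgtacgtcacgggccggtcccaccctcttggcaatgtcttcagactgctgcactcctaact
Efnb1 promoter, chrX:99135811-99136060, plus strand: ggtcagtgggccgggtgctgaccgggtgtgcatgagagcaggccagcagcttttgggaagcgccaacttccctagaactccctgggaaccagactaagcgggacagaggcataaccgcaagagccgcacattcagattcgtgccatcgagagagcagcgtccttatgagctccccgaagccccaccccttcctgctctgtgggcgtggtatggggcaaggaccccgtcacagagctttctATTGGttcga
Efna2 promoter, chr10:80179232-80179481, plus strand: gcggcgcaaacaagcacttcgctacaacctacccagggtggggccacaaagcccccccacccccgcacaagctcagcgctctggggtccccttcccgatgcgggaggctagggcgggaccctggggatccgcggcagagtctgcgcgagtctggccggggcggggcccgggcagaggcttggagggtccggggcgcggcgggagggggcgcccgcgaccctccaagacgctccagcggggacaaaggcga
Sema3e promoter, chr5:14025026-14025275, plus strand: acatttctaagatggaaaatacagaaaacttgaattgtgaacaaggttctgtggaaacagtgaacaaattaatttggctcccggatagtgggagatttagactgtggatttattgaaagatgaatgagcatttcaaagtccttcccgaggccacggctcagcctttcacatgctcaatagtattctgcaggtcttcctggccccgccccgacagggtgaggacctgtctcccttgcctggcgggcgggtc
The search covered the CArG box of SRF, the AP-1 site TGANTCA and the TEAD site GGAATG on both strands, and the 4 windows held none of them. These are present in 1.47%, 6.75% and 12.6% of all 32851 windows of this length. The CCAAT box was added after the sequences were read. It occurs in the windows of Epha4, 88 bases before the start, and of Efnb1, 10 bases before it, and in 33.8% of all windows. Of 59 members with a window, 19 hold the box. Plxna4 had no window, and with a motif chosen from these same 4 sequences no link to the direction of change was tested. The windows differ in composition. That of Efna2 is 73.6% G and C with 25 CpG dinucleotides, that of Epha4 66.0% with 14, that of Efnb1 60.0% with 13, and that of Sema3e 48.0% with 7, where the median window has 52.4% and 6.

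SVEC4-10 cells transcribed 35 of the 68 genes at 1 FPKM or more in at least 3 libraries, the level from which genes were tested. A further 15 had at least 10 reads in at least 3 libraries, 10 had fewer reads, and 8 had none. Each family was dominated by a few genes. Among plexins, Plxnb2, a receptor of class 4 semaphorins, held 66.7% to 70.2% of the summed FPKM. Epha2 held 88.3% to 92.0% of the EphA receptor sum, Ephb4 66.6% to 71.5% of the EphB sum, and Slit3 88.4% to 90.5% of the slit sum. The semaphorins were more even, and Sema3c, the most abundant, held 27.4% to 30.0%. Of the 20 semaphorins 10 were tested, of 9 plexins 7, of 5 ephrin-A genes 4, of 3 ephrin-B genes 2, of 9 EphA receptors 2 and of 5 EphB receptors 4. Of the 4 netrins 2 were tested, of 4 Unc5 receptors 1, of 3 slits 2 and of 4 robos 0.

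**Figure D1:**
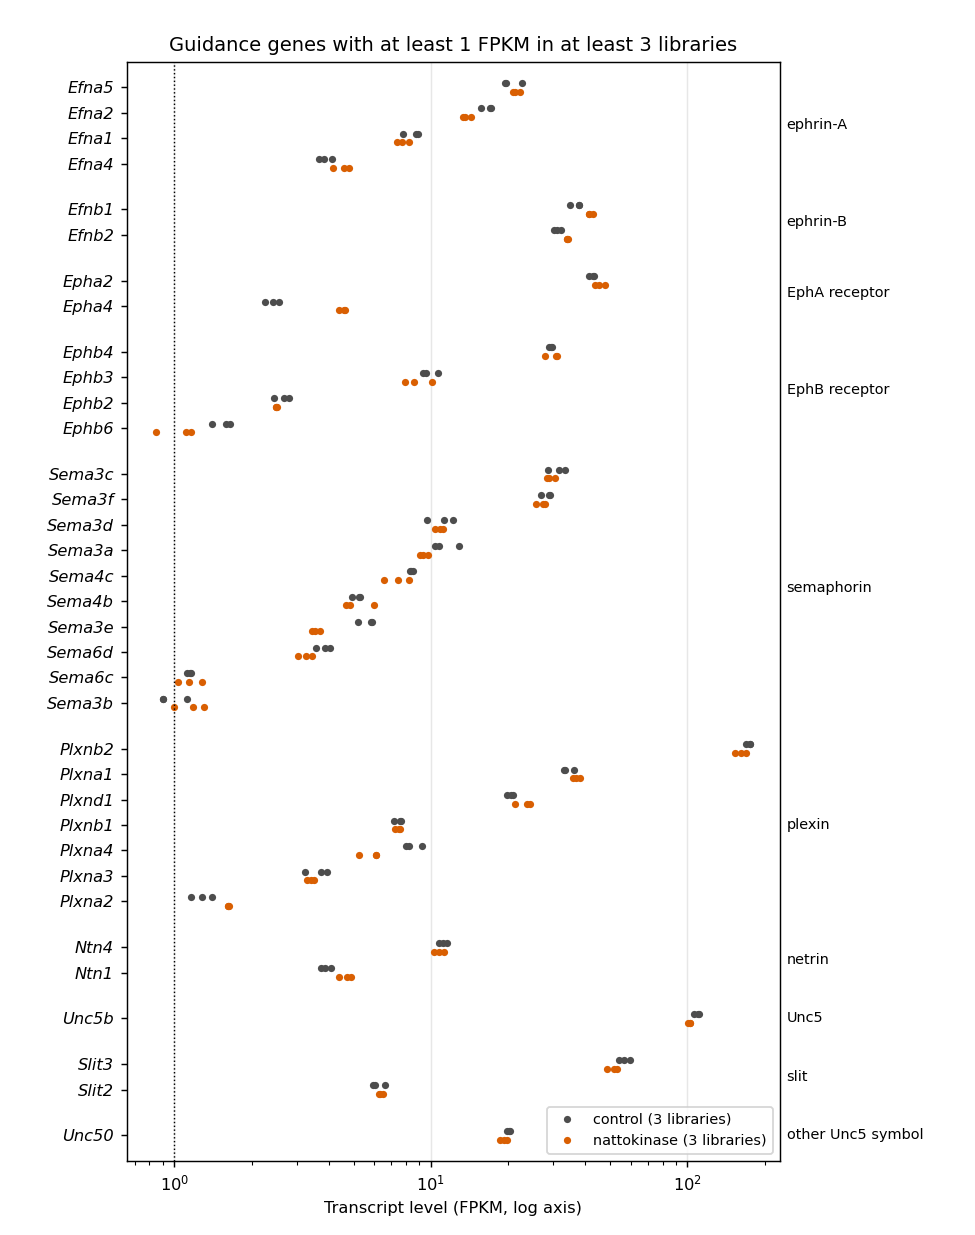
Level of each of the 35 tested guidance genes in FPKM on a log axis, by family, with 1 point per library (dark for control, orange for nattokinase, 3 each). Plxnb2 and Unc5b are the most abundant, and most genes have overlapping or adjoining groups.

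With nattokinase, Epha4 rose and Sema3e and Plxna4 fell, and smaller shifts past the test were seen for Efnb1, which rose, and Efna2, which fell. These are 2 genes higher and 3 lower of 35, or 14.3%, where 8.85% of all 10913 genes tested passed the same threshold (5.61% higher and 3.24% lower; limma on log2(FPKM + 1), Benjamini-Hochberg adjusted p under 0.05). Of the 20 ligand genes tested 1 rose and 2 fell, and of the 14 receptor genes 1 rose and 1 fell. The other 30 genes had log2 fold changes from −0.32 to 0.21 and adjusted p from 0.066 upwards. Log2 fold changes are on the log2(FPKM + 1) scale unless stated otherwise. The median log2 fold change of the 35 was −0.05, beside 0.01 over all genes. All 3 nattokinase libraries lay outside the control range for 18 of the 35, 8 higher and 10 lower, or 51.4%, where 28.8% of all tested genes were separated so. The members were chosen with earlier results of these data known, so these shares are descriptions and not tests. With FPKM rescaled to equal protein-coding totals, 1 guidance gene rose and 3 fell, and over all genes 478 were higher and 497 lower in place of 612 and 354. The calls of Epha4, Sema3e and Plxna4 were made under each of 15 alternatives, and those of Efnb1 and Efna2 were not. In bulk RNA, a change in the share of cells that express a gene and a change in RNA per cell cannot be told apart.

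**Figure D2:**
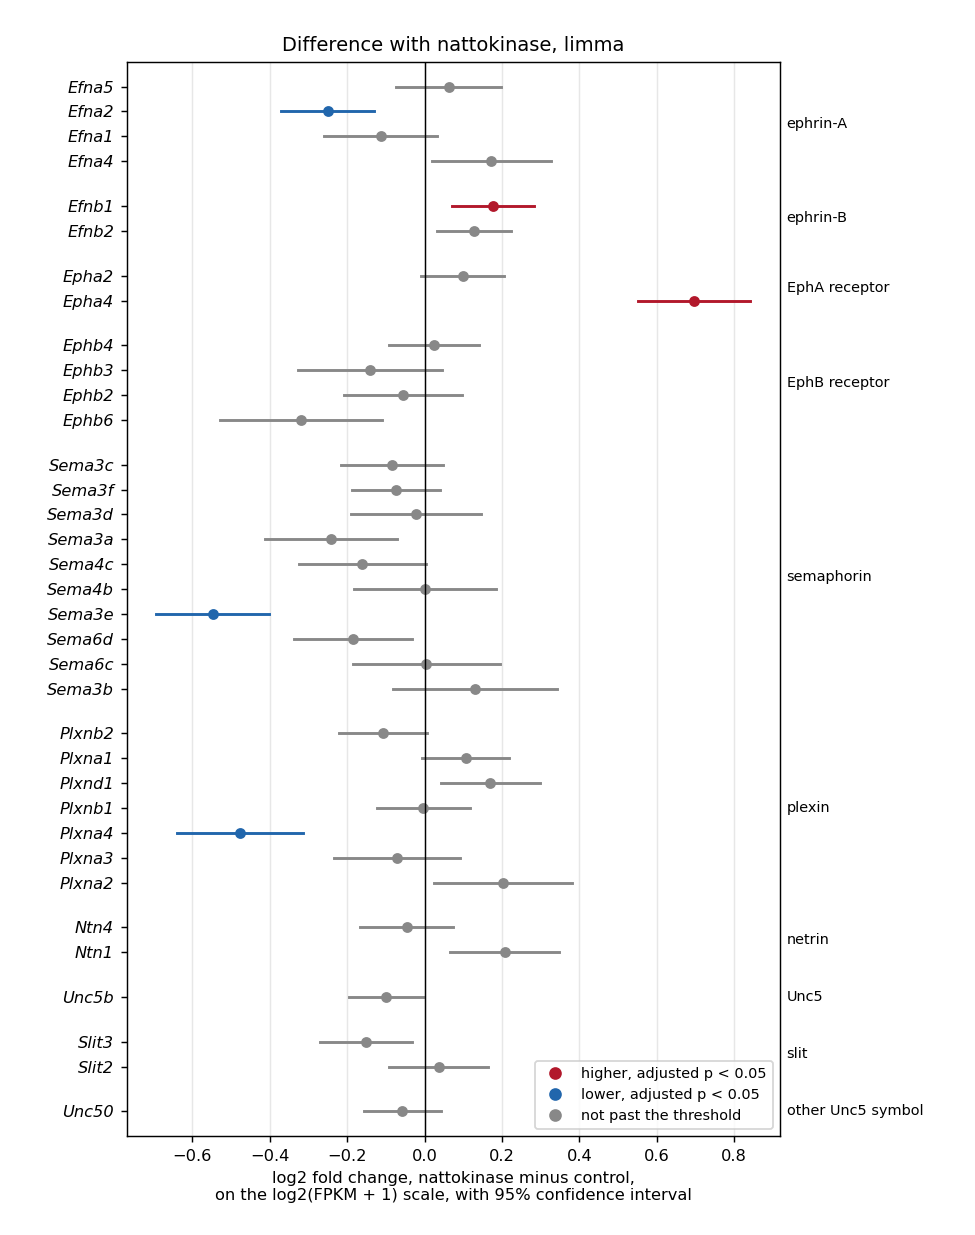
The log2 fold change of each tested guidance gene (nattokinase minus control, log2(FPKM + 1) scale) with its 95% confidence interval, from limma with 3 libraries per group. Red marks the 2 genes that passed the threshold upwards, blue the 3 that passed downwards, and grey the other 30.

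Epha4 had the largest log2 fold change of the 6 Eph receptor genes tested. Epha4 binds ephrins of both the A and the B class (Ensembl ENSMUSG00000026235, chromosome 1, 77367185 to 77515088, minus strand, GRCm38). It stood at 2.43, 2.25 and 2.57 FPKM in the controls and at 4.37, 4.61 and 4.62 FPKM with nattokinase. The groups lay far apart relative to their spread, with means of 2.42 ± 0.157 and 4.53 ± 0.141 (SD, n = 3 each), a 1.88-fold rise. The log2 fold change was 0.70 (SE 0.0648, limma adjusted p = 0.00026, and 2.6e-08 to 0.0079 over the alternatives). The Epha4 transcript level was nonetheless far below that of Epha2, a receptor of ephrin-A1 studied in vessel and epithelial cells. Epha2 had 43.3, 41.4 and 42.9 FPKM in control cells and 47.8, 43.6 and 45.4 in nattokinase-treated cells. The Epha2 groups did not overlap but adjoined, and the log2 fold change of 0.10 did not pass (95% interval −0.01 to 0.21, limma adjusted p = 0.26). The remaining EphA genes were too low to test. Epha1 had 31 to 45 reads per library, Epha7 77 to 98, Epha3 3 to 34 and Epha6 at most 2, while Epha5, Epha8 and Epha10 had none.

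EphB receptor genes did not pass the test. The most abundant was Ephb4, the venous receptor of ephrin-B2, at 29.4 ± 0.354 FPKM in control cells and 29.9 ± 1.86 in nattokinase-treated cells (95% interval of the log2 fold change −0.09 to 0.14). Exons of Ephb4 overlap the antisense gene Zan, and those of Plxna1 and Plxnb1 also overlap antisense genes. Ephb3 had 9.85 ± 0.750 and 8.86 ± 1.08 FPKM, and Ephb2 2.64 ± 0.182 and 2.50 ± 0.00766. Ephb6, a receptor without kinase activity, was lower in all 3 nattokinase libraries, at 0.852, 1.16 and 1.11 FPKM against 1.59, 1.66 and 1.40. It rests on 58 to 97 reads per library, and its log2 fold change of −0.32 (95% interval −0.53 to −0.11) did not pass (limma adjusted p = 0.066, and 0.034 to 0.20 over the alternatives). Ephb1 had 0 reads.

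The ephrins moved in both directions. Efnb1, an X-linked ligand gene with a cytoplasmic tail (chromosome X, 99136130 to 99148991), had 37.9, 37.8 and 34.9 FPKM in control cells and 41.3, 41.4 and 42.6 in nattokinase-treated cells. The groups did not overlap, and the rise was 1.13-fold (log2 fold change 0.18, SE 0.0476, limma adjusted p = 0.048). That call lay near the threshold and was made under 4 of 15 alternatives (adjusted p 0.024 to 0.17). It was lost with each of the 3 rescalings and when any library other than control replicate 1 was left out. Efnb2, the arterial partner of Ephb4, stood at 32.1, 30.2 and 31.0 FPKM and then at 34.0, 34.2 and 34.0. All 3 nattokinase libraries were above the controls, but the log2 fold change of 0.13 (95% interval 0.03 to 0.22) had an adjusted p of 0.10 with limma, and of 0.045 without control replicate 1. The summed ephrin-B level was 68.3 ± 2.1 FPKM in control cells and 76.2 ± 0.682 in nattokinase-treated cells (SD, n = 3).

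Efna2, whose product is held to the membrane by a lipid anchor as all ephrin-A proteins are (chromosome 10, 80179482 to 80190010), had 17.0, 17.2 and 15.6 FPKM in the controls. With nattokinase it had 13.4, 13.6 and 14.4 FPKM, all below the controls. The level fell to 0.830 of the control mean (log2 fold change −0.25, SE 0.0536, limma adjusted p = 0.018). Without control replicate 2 or nattokinase replicate 1 or 2 the adjusted p was 0.075, 0.063 and 0.073, and over all alternatives it ran from 0.011 to 0.10. Efna5, the most abundant ephrin-A gene, had 20.6 ± 1.76 and 21.5 ± 0.630 FPKM, and Efna1 8.51 ± 0.601 and 7.78 ± 0.419, with overlapping groups. Efna4 had 4.13, 3.82 and 3.68 FPKM in control cells and 4.78, 4.14 and 4.57 in nattokinase-treated cells, a log2 fold change of 0.17 that did not pass (limma adjusted p = 0.17). Its exons overlap an antisense gene. Efna3 and Efnb3 were too low to test, with 22 to 50 and 17 to 23 reads per library.

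**Figure D3:**
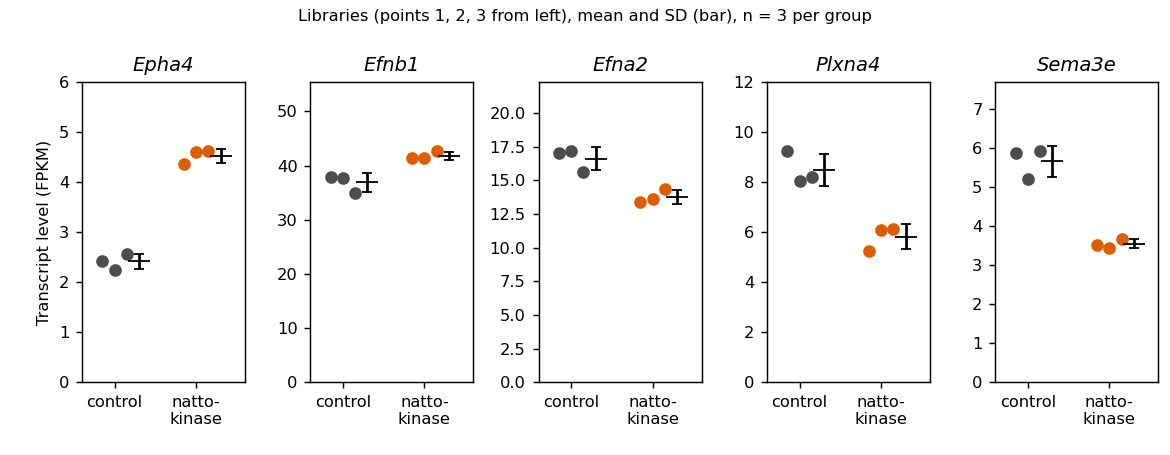
FPKM of the 5 guidance genes that passed the test, in each control (dark) and nattokinase (orange) library, with the mean and SD of each group (n = 3) as a bar beside the points. Axes start at 0. The groups of Epha4, Sema3e and Plxna4 stand well apart, and those of Efnb1 and Efna2 are close to each other.

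Of the semaphorins, Sema3e passed the test. Sema3e is a secreted cue that binds plexin-D1 without a neuropilin and restrains vessel growth (ENSMUSG00000063531, chromosome 5, 14025276 to 14256689, plus strand). Its level was 5.87, 5.20 and 5.92 FPKM in control cells and 3.53, 3.45 and 3.68 in nattokinase-treated cells. The groups did not overlap, and the mean fell from 5.66 ± 0.403 to 3.55 ± 0.119 FPKM (SD, n = 3 each), 0.627 of the control level. The log2 fold change was −0.55 (SE 0.0649, limma adjusted p = 0.00082, and 3.3e-07 to 0.018 over the alternatives). Its receptor gene Plxnd1 had 20.9, 20.5 and 19.8 FPKM in control cells and 21.2, 23.8 and 24.3 in nattokinase-treated cells. All nattokinase libraries were above the controls, replicate 1 only slightly, and the log2 fold change of 0.17 (95% interval 0.04 to 0.30) had an adjusted p of 0.10 with limma. Without nattokinase replicate 1 that p was 0.033, and over the alternatives it ran from 0.033 to 0.32.

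The other class 3 semaphorins included the most abundant of the family. Sema3c, a cue of cardiac and vascular development, had 31.1 ± 2.33 FPKM in control cells and 29.3 ± 1.13 in nattokinase-treated cells, Sema3f 28.4 ± 1.23 and 26.9 ± 1.14, and Sema3d 11.0 ± 1.27 and 10.8 ± 0.398. All 3 had overlapping groups and did not pass. Sema3a, the classical repellent of axons, had 12.9, 10.3 and 10.7 FPKM and then 9.73, 9.35 and 9.05. Control replicate 1 was the highest, the groups did not overlap, and the log2 fold change of −0.24 (95% interval −0.41 to −0.07) had a limma adjusted p of 0.086, with 0.015 to 0.32 over the alternatives. Sema3b was near the limit of the test, at 0.975 ± 0.123 and 1.16 ± 0.153 FPKM, with overlapping groups.

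Membrane-bound semaphorins lay below Sema3c, Sema3f, Sema3d and Sema3a in abundance, but Sema4c lay above Sema3e and Sema3b. Sema6d, a transmembrane ligand of plexin-A1, had 4.03, 3.87 and 3.57 FPKM in control cells and 3.03, 3.26 and 3.43 in nattokinase-treated cells. The groups did not overlap, and the log2 fold change of −0.18 (95% interval −0.34 to −0.03) had a limma adjusted p of 0.13, with 0.039 to 0.33 over the alternatives. Sema4c, a ligand of plexin-B2 whose exons overlap an antisense gene, had 8.38 ± 0.142 and 7.42 ± 0.842 FPKM. Sema4b had 5.15 ± 0.182 and 5.17 ± 0.726 FPKM, and Sema6c 1.15 ± 0.0211 and 1.16 ± 0.125. Of the semaphorins below the limit, Sema5a had the most reads, 127 to 227 per library. Sema3g, Sema4a, Sema4d, Sema4f, Sema4g and Sema7a had between 4 and 57, Sema6a and Sema6b at most 8, and Sema5b none.

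Plxna4 was the plexin gene that passed the test. Its product transduces Sema3a signals together with neuropilin-1 (ENSMUSG00000029765, chromosome 6, 32144268 to 32588192, minus strand). It stood at 9.25, 8.04 and 8.20 FPKM in the controls and at 5.26, 6.09 and 6.13 with nattokinase, where replicate 1 was the lowest. The groups did not overlap, and the mean fell from 8.49 ± 0.657 to 5.83 ± 0.491 FPKM (SD, n = 3 each), 0.686 of the control level. The log2 fold change was −0.48 (SE 0.0731, limma adjusted p = 0.0033, and 5.0e-06 to 0.046 over the alternatives). Exons of the antisense gene Plxna4os3 overlap it, and because strand use is unstated, reads there cannot be assigned to 1 of the 2 genes.

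The other plexins did not pass. Plxnb2 had 176, 175 and 169 FPKM in control cells and 153, 162 and 169 in nattokinase-treated cells. The highest nattokinase library, replicate 3, lay just under the lowest control, and the log2 fold change of −0.11 had a 95% interval of −0.22 to 0.01 (limma adjusted p = 0.25). Plxna1, a co-receptor for secreted semaphorins, had 36.2, 33.2 and 33.2 FPKM and then 36.9, 35.7 and 38.0, with overlapping groups and a log2 fold change of 0.11 (95% interval −0.01 to 0.22). Plxna2, also an A-class receptor, had 1.40, 1.16 and 1.29 FPKM and then 1.62, 1.63 and 1.63. All nattokinase libraries of Plxna2 were above the controls, with 300 to 512 reads per library, a log2 fold change of 0.20 (95% interval 0.02 to 0.38) and a limma adjusted p of 0.16, with 0.0077 to 0.36 over the alternatives. Plxnb1 had 7.46 ± 0.271 and 7.45 ± 0.198 FPKM and Plxna3 3.64 ± 0.359 and 3.40 ± 0.111. Plxnb3 was below the limit with 61 to 106 reads, and Plxnc1 had at most 5.

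Netrin and Unc5 genes did not pass the test. Ntn1, which encodes netrin-1, had 3.72, 3.88 and 4.08 FPKM in control cells and 4.38, 4.69 and 4.86 in nattokinase-treated cells. The groups did not overlap, and the log2 fold change of 0.21 (95% interval 0.07 to 0.35) had a limma adjusted p of 0.075, with 0.039 to 0.23 over the alternatives. Ntn4, a netrin of basement membranes that binds laminin, was the more abundant, at 11.2 ± 0.376 and 10.8 ± 0.483 FPKM. Unc5b, the netrin receptor of vessels, was the second most abundant of the guidance genes, at 111, 109.7 and 106 FPKM in control cells and 102, 100.5 and 102 in nattokinase-treated cells. Those groups did not overlap, but the log2 fold change was −0.10 and its limma adjusted p 0.20. Reads of the related Unc5c numbered 5 to 14, and Unc5a and Unc5d had none. Unc50, a member by spelling, had 20.1 ± 0.292 and 19.2 ± 0.550 FPKM, Unc5cl had 0 reads, and Ntn3 and Ntn5 had 5 to 15 and at most 2.

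Slits were transcribed, and few robo reads were found. Slit3 had 59.9, 56.4 and 54.2 FPKM in control cells and 48.5, 51.7 and 53.0 in nattokinase-treated cells. The groups of Slit3 adjoined without overlap, and the log2 fold change of −0.15 (95% interval −0.27 to −0.03) had a limma adjusted p of 0.12. Slit2 had 6.19 ± 0.360 and 6.37 ± 0.107 FPKM and Slit1 at most 15 reads. Over all 6 libraries Robo1 had 0 to 3 reads, Robo2 0 to 9 and Robo4 0 to 2. Robo3 had 16, 12 and 15 reads in the controls and 14, 6 and 5 with nattokinase. For a gene with 0 reads in a library, up to 3 reads remain possible, between 1.64e-05% and 1.99e-05% of that library, and these limits cover counting error only.

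Of the genes below the limit, the highest means were those of Efna3, Plxnb3, Epha1 and Sema5a. Efna3 had 0.558, 1.09 and 0.822 FPKM in control cells and 0.820, 0.680 and 1.12 in nattokinase-treated cells, and Plxnb3 0.684, 0.676 and 0.644 and then 0.760, 0.536 and 0.890. Both had overlapping groups. Among the 15 low genes, 1 passed a test on reads. With limma-voom on the recovered reads, an alternative that reaches genes below 1 FPKM, Epha3 had a log2 fold change of −1.71 (SE 0.473, adjusted p = 0.021). This value is on a log2 scale of reads per library and not of FPKM + 1, and on that scale Epha4 had 0.91. The Epha3 call rests on 34, 21 and 14 reads in the controls and 9, 13 and 3 with nattokinase. So the groups adjoin, and the control libraries themselves differ by more than the gap between the groups. Under the same alternative 5 guidance genes at or above the limit were higher and 6 lower, where 10.9% of 12810 genes passed. These were the 5 named above together with Plxna2, Plxnd1 and Ntn1, which were higher, and Sema3a, Sema6d and Ephb6, which were lower.

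Genes that act with the guidance families were grouped in 4 lists, together 91 genes, of which 70 were tested. Of the 70, 10 rose and 5 fell, or 21.4%, beside 8.85% of all tested genes. The lists were chosen with earlier results of these data known, so this share and those of each list are descriptions and not tests. The 5 that fell include the netrin partner Draxin, which entered the test only through the control libraries. The semaphorin and plexin partners had 23 of 30 genes tested, of which 5 rose and 1 fell (26.1%, median log2 fold change 0.05). Mical2, an actin-oxidising enzyme of the family that acts below plexins, rose from 34.8 ± 0.461 to 45.7 ± 0.601 FPKM (SD, n = 3, as in the next sentences). The plexin substrate genes Rras and Rras2 rose from 28.6 ± 1.25 to 35.7 ± 0.992 and from 26.7 ± 1.74 to 33.2 ± 1.91. The call of Rras2 was lost with no filter on low values (limma adjusted p = 0.11). The collapsin-response mediator gene Dpysl2, a cytoskeletal effector of Sema3a, fell from 20.8 ± 1.80 to 14.4 ± 0.699 FPKM (log2 fold change −0.50, limma adjusted p = 0.0015). Its relative Dpysl3 rose from 22.0 ± 0.422 to 25.4 ± 1.10, a call made under 7 of 15 alternatives. It was lost without replicate 2 or 3 of either group (limma adjusted p 0.074 to 0.14), with protein-coding totals (0.065) and with quantile scaling (0.060), among others. The neuropilins Nrp1 and Nrp2, co-receptors of class 3 semaphorins, had 6.60 ± 0.158 and 6.80 ± 0.195 and 17.3 ± 0.599 and 17.5 ± 0.939 FPKM in control and nattokinase cells, with overlapping groups.

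The netrin partners held the largest differences of the lists. Of 20 genes 14 were tested, 1 rose and 4 fell (35.7%, median −0.04). Flrt3, a membrane ligand of Unc5 receptors, rose from 6.34, 4.90 and 5.82 FPKM to 10.1, 10.5 and 9.65 (log2 fold change 0.73, SE 0.0795, limma adjusted p = 0.0005). Flrt1, of the same family, fell from 4.13, 4.19 and 3.97 FPKM to 2.20, 2.37 and 2.05 (log2 fold change −0.67, SE 0.0665, limma adjusted p = 0.00033). Neither pair of groups overlapped, and the 2 relatives moved in opposite directions. Flrt2 fell from 18.3 ± 1.54 to 15.2 ± 0.223 FPKM, a call lost without control replicate 3 or any nattokinase replicate (limma adjusted p 0.067 to 0.12) and made under 8 of 15 alternatives. Draxin, a secreted antagonist of netrin, fell from 1.54 ± 0.0534 to 0.654 ± 0.107 FPKM on 51 to 129 reads per library, and it entered the test only through the control libraries. Neo1, which encodes the netrin receptor neogenin, fell from 24.5 ± 1.02 to 21.2 ± 1.03 FPKM. That call was lost without any 1 library (limma adjusted p 0.065 to 0.13) and made under 6 of 15 alternatives.

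Of the partners of slits and robos, 3 of 16 tested genes (of 18) rose and 0 fell (18.8%, median 0.06), and at an unadjusted p under 0.05 the counts were also 3 and 0. All 3 act on actin filaments. Vasp rose from 45.3 ± 2.69 to 55.9 ± 0.481 FPKM, its relative Enah from 4.91 ± 0.370 to 6.14 ± 0.150 and the cyclase-associated protein gene Cap1 from 110.3 ± 1.66 to 127 ± 2.59. With no filter on low values all 3 calls were lost, that of Vasp narrowly (limma adjusted p = 0.051). The calls of Enah and Cap1 did not survive the removal of any 1 library except control replicate 1 (limma adjusted p up to 0.097 and 0.075), and Cap1 exons overlap those of the antisense gene Ppt1. Of the partners of ephrins and Eph receptors, 18 of 24 were tested and 1 rose (5.56%, below the share of all genes, median 0.05). This was Rgs3, which couples ephrin-B to G proteins, from 2.38 ± 0.163 to 3.39 ± 0.251 FPKM (limma adjusted p = 0.011). Its call was lost without nattokinase replicate 2 (limma adjusted p = 0.057) and with no filter on low values (0.071). The next by p were Inppl1, a phosphatase recruited by Epha2, with a log2 fold change of 0.13, the adaptor Nck2 with −0.16 and the exchange factor Vav2 with −0.13, none past the threshold. Among the slit and robo partners the next was the myosin gene Myo9b, at 0.12.

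**Figure D4:**
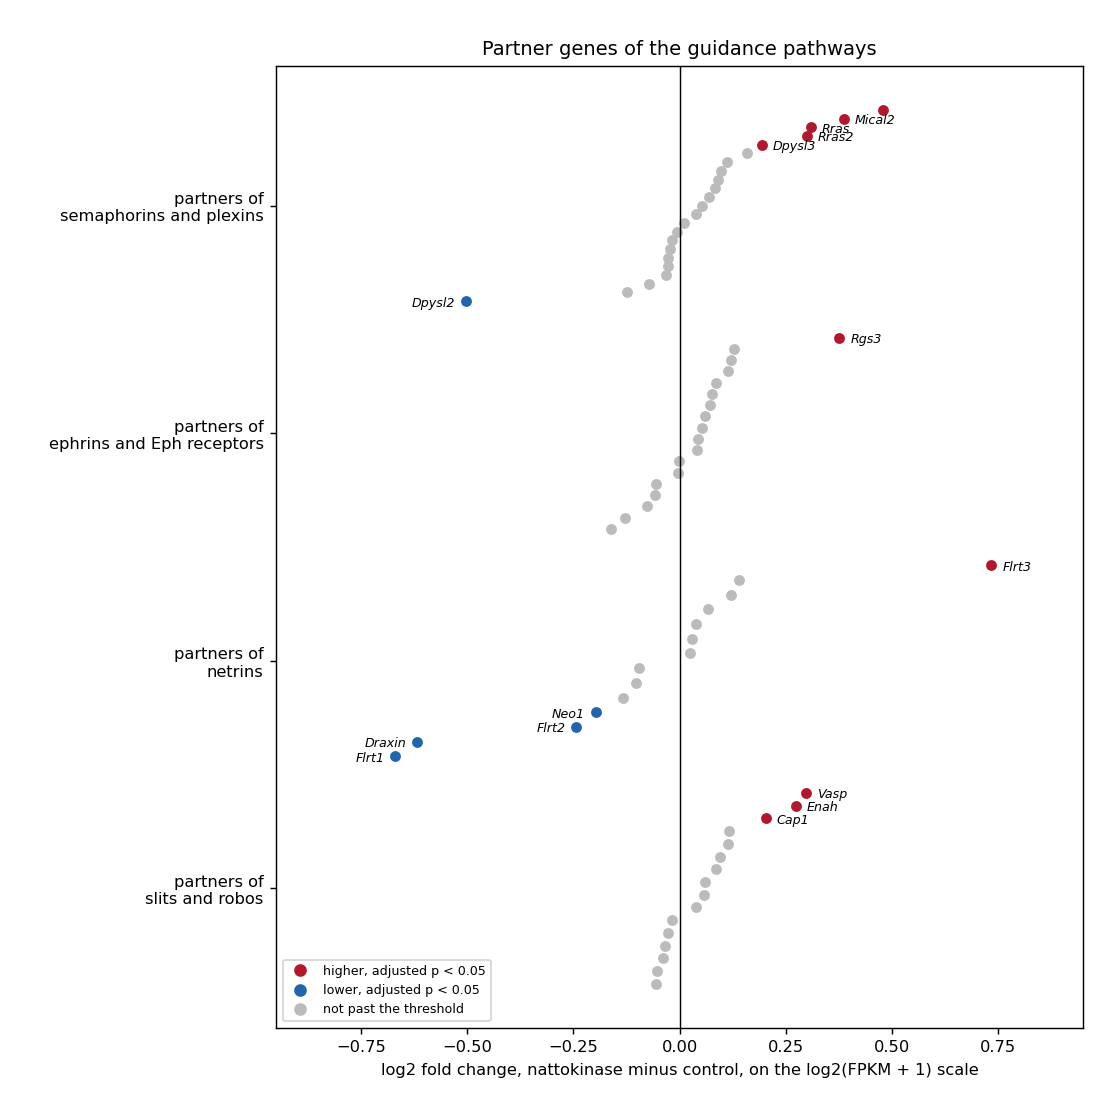
The log2 fold change of each tested partner gene (nattokinase minus control, log2(FPKM + 1) scale) in the 4 lists, sorted within each list, 1 point per gene. Red and blue points passed the threshold, and all but 1 carry the gene name, with Flrt3 farthest to the right and Flrt1 farthest to the left.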

How the data were processed

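Per the labels, total RNA of 3 untreated and 3 nattokinase-treated samples of SVEC4-10 was sequenced. The authors deposited FPKM per Ensembl gene for each library. The submitters' processing notes name HISAT2 2.1.0, Trimmomatic 0.38, DESeq2 1.22.1, featureCounts 1.6.0, CASAVA, MultiQC and FastQC, without roles. They name the human build GRCh38, while all 55536 identifiers are mouse genes of GENCODE M21 (GRCm38). Strand use is not stated there. Multiplied by merged exon length, 100% of FPKM values gave whole reads within 0.05, which supplied the depths.

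Genes that reached 1 FPKM in 3 or more libraries were tested with limma 3.58.1 (R 4.3.3) on log2(FPKM + 1), with trend and robust moderation and Benjamini-Hochberg adjustment over 10913 genes at 0.05. The code was tested on simulated data. Alternatives were other pseudocounts, filters and scalings, limma-voom on at least 10 recovered reads in 3 libraries, a replicate block, and leaving out each library. Every tested guidance gene is named. Those past the threshold, the 6 others with the largest fold change and the 6 most abundant are given by library, and partners are named when past the threshold or among the 4 smallest p of their list, except 1 partner that is not reported here. Members and lists were chosen with earlier results of these data known. Promoter windows are from RefSeq, and 59 of 68 members matched.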

Additional observations from a re-analysis of the deposited data

How the results depend on the processing

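Of the 5 called guidance genes, 3 passed under all 15 alternatives (Epha4, Sema3e and Plxna4), and none of the 5 changed direction in any of them. Of the 15 called partners, 7 passed under all, among them Draxin, which entered the test only through the control libraries. The count of guidance genes higher, 2 as reported, was 1 with no filter, with 0.3 FPKM as the filter, and with median-of-ratios, protein-coding or quantile scaling. With limma-voom 5 were higher and 7 lower, in place of 2 and 3. Leaving out 1 library gave 1 to 3 higher and 2 to 3 lower. Partners higher (10 as reported) numbered 4 with no filter and 6 to 10 without 1 library. Partners lower (5 as reported) numbered 3 with no filter or the 0.3 FPKM filter and 3 to 4 without 1 library. Over all genes, 221 were higher and 109 lower with no filter, and 328 to 720 and 197 to 486 without 1 library.

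Same-numbered libraries did not deviate together (correlations −0.089, −0.044 and −0.059). The other pairs of a control and a nattokinase library had −0.043 to 0.094. The labels do not say whether a number marks a shared batch, and correlations this weak do not show it either way. With the replicate block 1 guidance gene was higher and 3 lower, 7 partners were higher and 3 lower, and 439 and 249 genes in all.

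Alternatives were run gene by gene for the 35 tested guidance genes and 21 of the 70 tested partners. Among these, values near 0 changed sign, far from the threshold, in 6 genes. Ephb4 came to −0.0098 with protein-coding totals, −0.0044 with quantile scaling and ranged from −0.0053 to 0.075 without 1 library. So left out, Sema3d ranged from −0.11 to 0.048 and Plxnb1 from −0.030 to 0.017. Sema6c came to −0.0022 and −0.015 with median-of-ratios and protein-coding scaling, and ranged from −0.039 to 0.044 without 1 library. Sema4b came to −0.00086 and −0.00028 with pseudocounts of 0.1 and 0.5, to −0.0097, −0.029 and −0.012 with median-of-ratios, protein-coding and quantile scaling, and ranged from −0.094 to 0.058 without 1 library. Nrp2 came to −0.00093, −0.023 and −0.0075 with the same 3 scalings, and ranged from −0.013 to 0.053 without 1 library. The cause of these changes was not tested. Ephb6 and Epha3 rest on at most 97 and 34 reads per library.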
